A study of Brachypodium distachyon with 8 samples.

Results

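Mock-treated *BdLNJ-OX* plants of *Brachypodium distachyon* Bd21-3 were compared with mock-treated wild type, to ask how overexpression of *LITTLE NINJA* (*LNJ*) changed leaf mRNA without added jasmonate. The comparison used 4 of the 8 mRNA-seq libraries, the 2 mock libraries of each genotype, chosen by treatment and by the name of their deposited table. The other 4 libraries came from plants of both genotypes that were sprayed with methyl jasmonate (MeJA), and they entered the scaling and the estimate of the spread. The study describes homozygous T3 *BdLNJ-OX* plants that carry the *LNJ* coding sequence in an overexpression vector, selected on hygromycin, and wild-type Bd21-3. Leaves of 4-wk-old plants were collected, with 12 plants pooled for each sample, and mock plants received a Tween solution without MeJA. The methods give 2 spraying schedules that differ in length, and which of them these plants had is not clear, so their age at harvest and the number of mock sprays are uncertain. The study had 3 independent *BdLNJ-OX* lines. The promoter of the transgene and the line that gave each library are not given in the sources used here, so a difference between the genotypes cannot be told apart from one that is particular to a line or to its insertion site.

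The genotype of the libraries is stated in opposite ways. Each sample titled WT carries a table named for the overexpressor, and each sample titled for the overexpressor (genotype MTL-OX in the labels, ABI in its title) carries a table named WT. The libraries are called OX and WT here by the names of their tables, and by the sample titles every direction given here is turned round. The *LNJ* transcript followed the table names in all 8 libraries, as its values show.

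Jasmonate signaling in plants is held in check by JAZ proteins, which bind MYC-type transcription factors and, through the adaptor NINJA, recruit corepressors of the TOPLESS family to them. When the hormone accumulates, its active form brings JAZ proteins to the receptor COI1 for degradation and the target genes are transcribed. LNJ is a microProtein, a small protein related to the carboxyl-terminal domain of NINJA, and the study examined it as a modulator of this repression in grasses. The study describes LNJ as a possible splice form of a larger NINJA protein whose gene was not annotated correctly. By the study it is unclear whether Brachypodium itself forms an LNJ-type protein.

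Expression was deposited as FPKM, the fragments counted for a gene relative to its transcript length and to the mapped fragments of the library. The FPKM were divided by 1 factor per library, the median ratio to the geometric means over the 8 libraries, and are called scaled FPKM. These factors were 1.05 and 1.04 for the OX mock libraries and 0.85 and 0.937 for the WT mock libraries. From the confidence bounds that accompany each FPKM, 15821699 and 15431594 fragments were derived for the OX mock libraries and 14940964 and 13910961 for the WT mock libraries. Genes with a mean scaled FPKM of at least 1 (14892 genes) were tested with limma on log2(scaled FPKM + 1). A gene was called when it differed by at least 1 on this log2 scale (2-fold), with a p-value, adjusted by Benjamini-Hochberg, not above 0.05. A log2 difference on this scale is smaller than the log2 of the fold change, most of all for genes with low values. In whole leaves, fewer cells of a type and less RNA per cell cannot be told apart. The labels do not say how the 2 samples of a group were grown, so p-values measure only the spread between such samples. That spread is pooled over the 4 groups, MeJA included, and drawn by limma toward that of other genes. Leaf markers could not be checked, because neither the tables nor the RefSeq gene table pairs BRADI identifiers of nuclear leaf genes with names.

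Of the 4 groups, WT mock had the replicates that differed most. Of the 14892 genes, 410 were at least 2-fold apart, in log2(scaled FPKM + 1), between the 2 OX mock libraries and 1136 between the 2 WT mock libraries. Across genes, Pearson's r was 0.97 between the OX mock libraries and 0.948 between the WT mock libraries. WT mock library 2 had an r of 0.969 with OX mock library 1, which was above its r with the other WT mock library. The numbers of genes that were 2-fold apart between the replicates under MeJA were 150 for OX and 544 for WT.

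**Figure D1:**
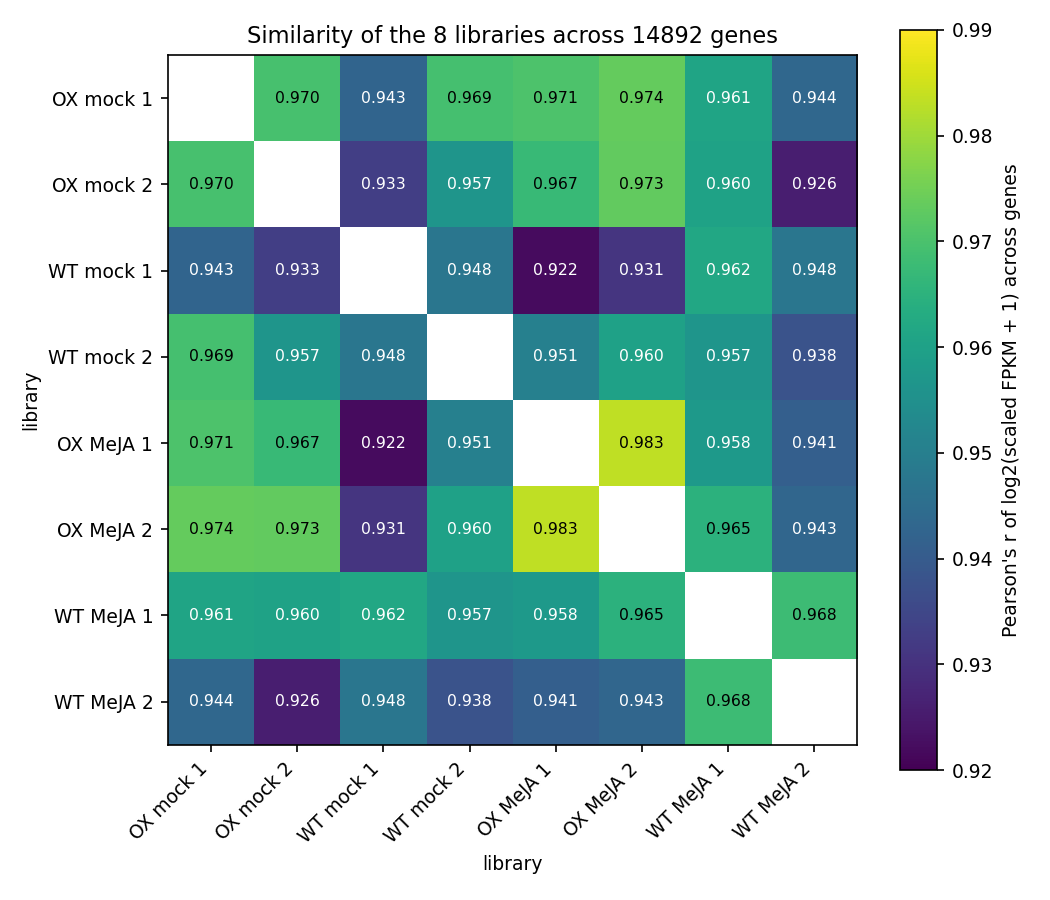
Pearson's r of log2(scaled FPKM + 1) across 14892 genes for each pair of the 8 libraries, named by their tables, with the diagonal left blank. WT mock 1 and WT mock 2 had an r of 0.948, below the r of 0.97 of the OX mock pair and the r of 0.983 of the OX MeJA pair.

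Overexpression was plain in the *LNJ* transcript. *LNJ* (BRADI1G69970, chr1:68443871-68444179, a locus of 309 bp, on the genome that the tables use and do not name) had 657 and 734 scaled FPKM in the OX mock libraries and was listed at 0 in both WT mock libraries. These values rest on 884 and 876 fragments in the OX mock libraries. Under MeJA it had 562 and 541 scaled FPKM in the OX libraries, against 0 and 0.754 in the WT libraries, the last of which was 1 fragment. All 4 OX libraries were thus high and all 4 WT libraries were at or near 0, under both treatments. The log2 difference in mock plants was 9.44 ± 0.25 (SE, n = 2 against 2 libraries; limma adjusted p = 9.12e-05). No fold change is given for it, because WT mock is listed at 0. Among the 14892 genes, *LNJ* ranked 139 by mean scaled FPKM in the OX mock libraries. Per length, its level there was 39.6 times that of *NINJA* and 27.8 times that of the *JAZ* gene of the study. The locus is short, and FPKM of short loci depend strongly on the length correction of Cufflinks, so that these ratios are less certain than a ratio between samples.

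The 2 repressor complex genes that the text of the study gives by identifier, *NINJA* and *JAZ*, were not called. That text gives no identifier for TOPLESS or for other *JAZ* genes, so these were not looked at. *NINJA* (BRADI2G11790, chr2:10109219-10112903), which encodes the adaptor, had 18.1 and 17.0 scaled FPKM in the OX mock libraries, against 19.6 and 23.4 in the WT mock libraries. The OX libraries lay just below the WT libraries, with a log2 difference of -0.27 ± 0.15 (SE, limma adjusted p = 0.438). *JAZ* (BRADI1G21490, chr1:17327516-17329243), the gene for the JAZ protein that the study tested against NINJA in yeast, had 24.1 and 26.0 scaled FPKM in the OX mock libraries, against 51.1 and 39.0 in the WT mock libraries. Both OX libraries were below both WT libraries, at 0.556 times the WT mean. The log2 difference was -0.81 ± 0.17 (SE) with an unadjusted p of 0.00211 and an adjusted p of 0.2 in limma, so it did not pass over 14892 genes. Under MeJA *JAZ* had 24.5 and 28.3 scaled FPKM in the OX libraries, against 49.7 and 51.7 in the WT libraries, and again did not pass (limma adjusted p = 0.192). The OX mean was 0.521 times the WT mean there, and the 2 genotypes did not overlap under either treatment. With no minimum fold, the 2 OX mock libraries were both above both WT mock libraries in 21.6% of the tested genes and both below them in 22.1%. Both OX libraries were below both WT libraries under mock and under MeJA in 11.9% of the tested genes.

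Over all genes, 6 were called higher and 6 lower in OX than in WT mock plants, which is 0.0403% of the tested genes in each direction and 0.0806% in all. At an unadjusted p under 0.05, 977 genes were higher and 1132 lower, 14.2% of those tested. Of the 12 called genes, 8 had at least 20 fragments in both libraries of the higher group and no overlapping gene, 3 of them higher and 5 lower. The other 4 rest on very few fragments or on a locus shared with another gene, and are described apart. Neither the tables nor the RefSeq gene table pairs the 11 identifiers other than *LNJ* with a name (0 of 26552 BRADI identifiers were matched), so they are given by identifier and locus with no role.

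**Figure D2:**
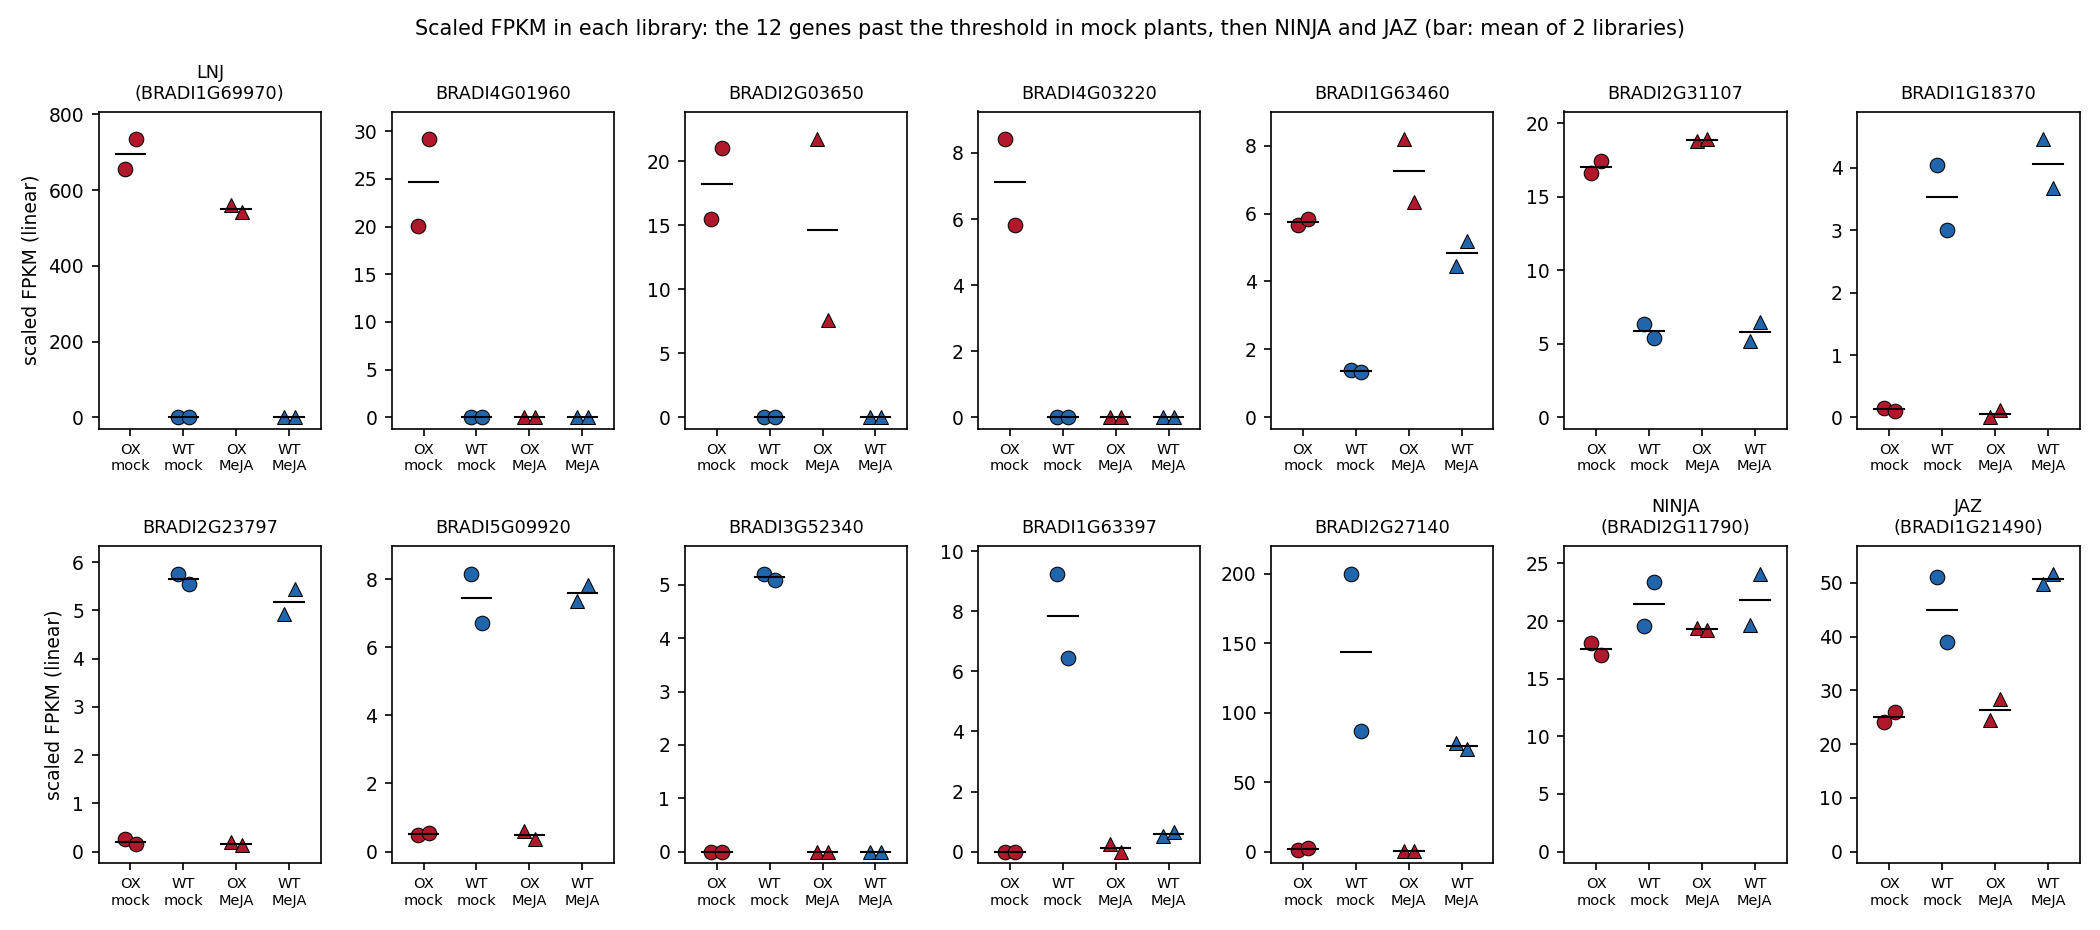
Scaled FPKM (linear axis, 1 scale per panel) in each of the 8 libraries for the 12 genes called in mock plants and for *NINJA* and *JAZ*, with OX libraries in red, WT libraries in blue, circles for mock and triangles for MeJA. Horizontal bars are means of 2 libraries. In BRADI2G31107, BRADI2G27140, BRADI2G23797, BRADI5G09920 and BRADI1G18370 the MeJA libraries separated by genotype as the mock libraries did.

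Besides *LNJ*, 2 genes with many fragments were higher in OX mock plants. BRADI2G31107 (chr2:30874552-30880183) had 16.7 and 17.5 scaled FPKM in the OX mock libraries, against 6.36 and 5.41 in the WT mock libraries. It rose 2.9-fold in OX (log2 difference 1.40 ± 0.14 SE, limma adjusted p = 0.0357). The genotypes were as far apart under MeJA, with 18.8 and 18.9 scaled FPKM in the OX libraries, against 5.22 and 6.46 in the WT libraries, where it was called too (limma adjusted p = 0.0284). The 4 OX libraries ranged over little more than 2 scaled FPKM and none came near a WT library. The mock call still lay close to the threshold and passed in 3 of 9 other settings of the analysis. It did not pass with upper-quartile scaling (limma adjusted p = 0.0574), a pseudocount of 0.1 (0.0506), no filter (0.0649) or a mean of at least 5 scaled FPKM (0.0593).

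The other, BRADI1G63460 (chr1:62606896-62609181), had 5.67 and 5.84 scaled FPKM in the OX mock libraries, against 1.41 and 1.34 in the WT mock libraries. It rose 4.2-fold in OX (log2 difference 1.51 ± 0.15 SE, limma adjusted p = 0.0357). Under MeJA the OX libraries had 8.18 and 6.32 scaled FPKM, against 4.46 and 5.21 in the WT libraries, and the gene was not called there (limma adjusted p = 0.237). The 2 WT mock libraries were thus the low ones among all 8. The difference between the MeJA and the mock contrast was -1.02 ± 0.21 (SE) and did not pass (limma adjusted p = 0.98). This call is among the least firm, since it passed in 0 of the 8 fits that left out 1 library.

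Of the 6 genes called lower in OX, 4 were at under 3 scaled FPKM in all 4 OX libraries and were called under MeJA as well. BRADI2G27140 (chr2:25887532-25891726) had 1.30 and 2.81 scaled FPKM in the OX mock libraries, against 200.1 and 87.1 in the WT mock libraries. It fell to 0.0143 times the WT level (log2 difference -5.49 ± 0.40 SE, limma adjusted p = 0.00811), on 40 and 80 fragments in OX and 4526 and 2053 in WT. Under MeJA it had 0.331 and 0.527 scaled FPKM in the OX libraries, against 77.9 and 73.9 in the WT libraries. WT mock library 1 was well above the other 3 WT libraries, which were close together, and every OX library was far below them.

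The other 3 of these genes differed less between replicates. BRADI2G23797 (chr2:21550056-21559543) had 0.257 and 0.154 scaled FPKM in the OX mock libraries, against 5.76 and 5.55 in the WT mock libraries (log2 difference -2.47 ± 0.14 SE, limma adjusted p = 0.00486). BRADI5G09920 (chr5:13194540-13201852) had 0.477 and 0.542 scaled FPKM in the OX mock libraries, against 8.16 and 6.71 in the WT mock libraries (log2 difference -2.48 ± 0.15 SE, limma adjusted p = 0.00503). BRADI1G18370 (chr1:14755966-14759931) had 0.154 and 0.108 scaled FPKM in the OX mock libraries, against 4.05 and 3.01 in the WT mock libraries (log2 difference -1.99 ± 0.19 SE, limma adjusted p = 0.0357). The OX mock means were 0.0363, 0.0685 and 0.0371 times the WT mock means of BRADI2G23797, BRADI5G09920 and BRADI1G18370. In the MeJA libraries the OX means were 0.0316, 0.0638 and 0.0142 times the WT means in that order of genes, and all 3 were called (limma adjusted p = 0.00431, 0.00431 and 0.0212). These 3 genes were thus at a low but counted level in OX, with 4 to 34 fragments in an OX mock library, and at a moderate level in WT.

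BRADI1G63397 (chr1:62568393-62569243) was called lower in mock plants alone. It was listed at 0 in both OX mock libraries, against 9.25 and 6.45 scaled FPKM in the WT mock libraries (log2 difference -3.13 ± 0.22 SE, limma adjusted p = 0.00785). Under MeJA the OX libraries had 0.239 and 0 scaled FPKM, against 0.532 and 0.661 in the WT libraries, all on 6 fragments or fewer, and the gene was not called (limma adjusted p = 0.297). The 2 WT mock libraries were high and the other 6 were under 1 scaled FPKM. The change of the genotype difference between treatments, 2.61 ± 0.31 (SE), did not pass (limma adjusted p = 0.238). BRADI1G63397 lies 37652 bases from BRADI1G63460, which was higher in OX mock plants.

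The remaining 4 calls are uncertain as measurements. BRADI4G01960 (chr4:1287124-1287446) had 20.1 and 29.1 scaled FPKM in the OX mock libraries, against 0 in both WT mock libraries, but each OX value was 1 fragment in a locus of 323 bp (log2 difference 4.66 ± 0.20 SE, limma adjusted p = 0.00116). BRADI2G03650 (chr2:2622549-2622761) had 15.5 and 21.0 scaled FPKM in the OX mock libraries, from 2 fragments each, against 0 in both WT mock libraries (log2 difference 4.25 ± 0.42 SE, limma adjusted p = 0.0357). Under MeJA BRADI2G03650 had 21.7 and 7.58 scaled FPKM in the OX libraries, against 0 in both WT libraries (limma adjusted p = 0.0705). Both genes were thus seen in OX alone, and 1 or 2 fragments per library do not tell a silent gene from a weakly transcribed one. BRADI4G03220 (chr4:2562252-2566013) had 8.41 and 5.82 scaled FPKM in the OX mock libraries, from 286 and 200 fragments, and was listed at 0 in the 2 WT mock and the 4 MeJA libraries (limma adjusted p = 0.00785). BRADI3G52340 (chr3:53278249-53282035) was listed at 0 in the OX mock libraries, against 5.21 and 5.09 scaled FPKM in the WT mock libraries, from 167 and 166 fragments, and was at 0 in the 4 MeJA libraries (limma adjusted p = 0.00785). Both of these loci overlap another gene. How fragments were divided between each of them and the gene it overlaps was not tested.

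**Figure D3:**
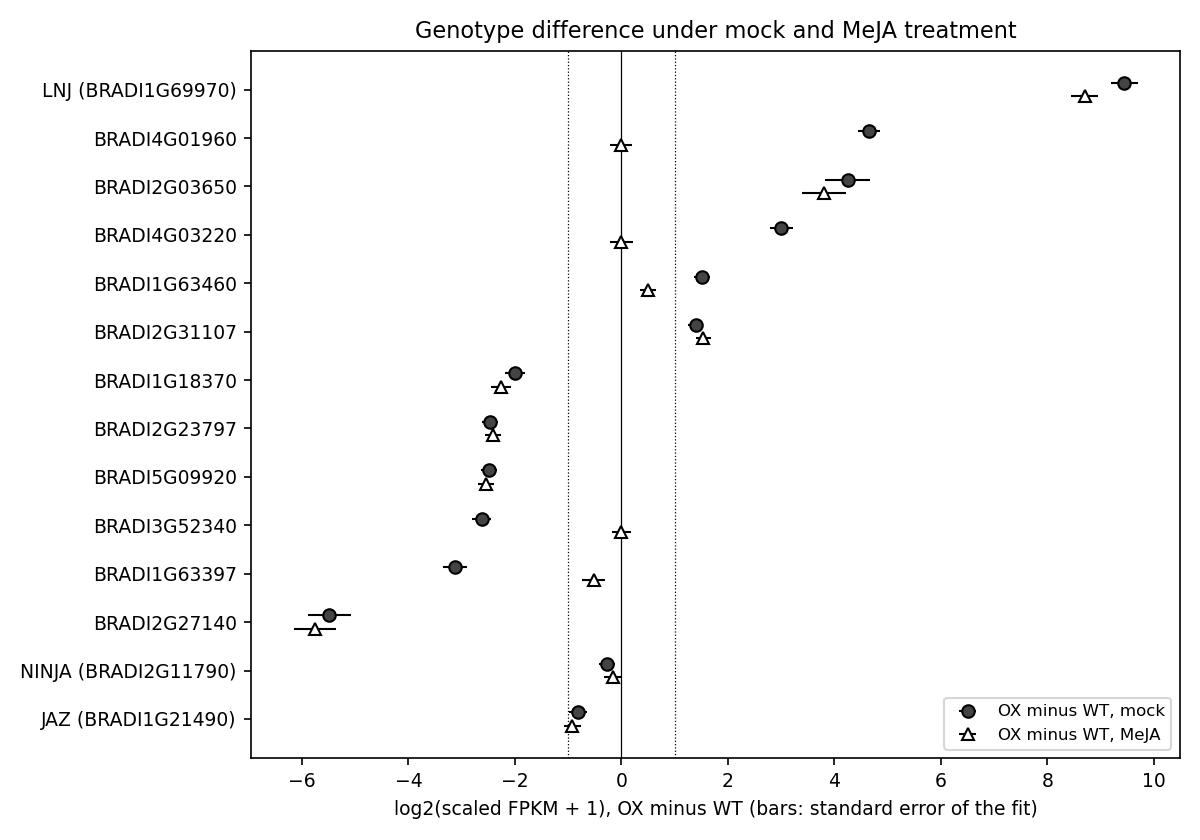
Difference in log2(scaled FPKM + 1), OX minus WT, in mock libraries (filled circles) and in MeJA libraries (open triangles) for the 12 genes called in mock plants and for *NINJA* and *JAZ*. Bars are standard errors of the limma fit and dotted lines mark a difference of 1. *LNJ*, BRADI2G31107 and the 4 genes called lower under both treatments have both symbols past the same dotted line, while BRADI4G01960, BRADI4G03220 and BRADI3G52340 were at 0 in the MeJA libraries.

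The MeJA libraries give the genotype difference in other samples, under another treatment. Both contrasts come from 1 fit with a shared spread for each gene, so a gene with a small spread is favored in both and the calls are not independent. Of the 12 genes called in mock plants, 6 were called in the same direction under MeJA, *LNJ* and BRADI2G31107 higher and BRADI2G27140, BRADI2G23797, BRADI5G09920 and BRADI1G18370 lower. By comparison, 4 of all 14892 genes (0.0269%) were called higher and 7 (0.0470%) lower in OX under MeJA, 11 in all (0.0739%). Of the other 6, 3 differed in the same direction without being called, and 3 (BRADI4G01960, BRADI4G03220 and BRADI3G52340) were at 0 in all 4 MeJA libraries. The test of whether the genotype difference changed with treatment passed for 2 genes (0.0134%), each seen with at most 1 fragment in any library. At an unadjusted p under 0.05, 289 genes had a positive and 354 a negative change.

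Genes were also counted without a test, by a mean scaled FPKM at least 2-fold apart with both libraries of one genotype above both of the other. This 2-fold is a ratio of means, unlike that of the calls and of the replicate counts, which used log2(scaled FPKM + 1). In mock plants 296 genes were higher in OX (1.99%) and 321 lower (2.16%), and of these 53 and 56 were at least 4-fold apart. Among the 296 genes, 97 (32.8%) met the same criterion in the same direction in the MeJA libraries, as did 4.76% of all tested genes, and 10 met it in the opposite direction. Among the 321 genes, 109 (34%) met it in the same direction, as did 3.02% of all tested genes, and 7 in the opposite direction. The median log2 difference of the 296 genes was 0.98 in mock and 0.31 in MeJA libraries, and that of the 321 genes was -1.04 in mock and -0.6 in MeJA libraries. The median of the mean scaled FPKM was 3.52 for the 296 and 3.73 for the 321 genes, against 8.17 for all tested genes. The shares of all tested genes are thus not from genes of a like level. The mock and MeJA comparisons share no library.

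These genes were not spread evenly over expression level and locus length. Of genes with a mean of 1 to 2 scaled FPKM, 5.04% were higher and 4.18% lower in OX, and of those with 10 to 50 scaled FPKM 0.986% were higher and 1.2% lower. Loci under 2 kb made up 42.9% of the genes higher in OX and 56.4% of those lower in OX, against 25.3% of all tested genes. In loci under 1 kb the median log2 difference between OX and WT was -0.096, and there the 2 WT mock libraries differed by a median of 0.087 and the 2 OX mock libraries by -0.078 (library 1 minus library 2). The genotype difference of loci under 1 kb was thus about as large as the difference between replicates. In loci of 1 to 2 kb it was -0.077, larger in size than the replicate differences of 0.047 in WT and -0.024 in OX.

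**Figure D4:**
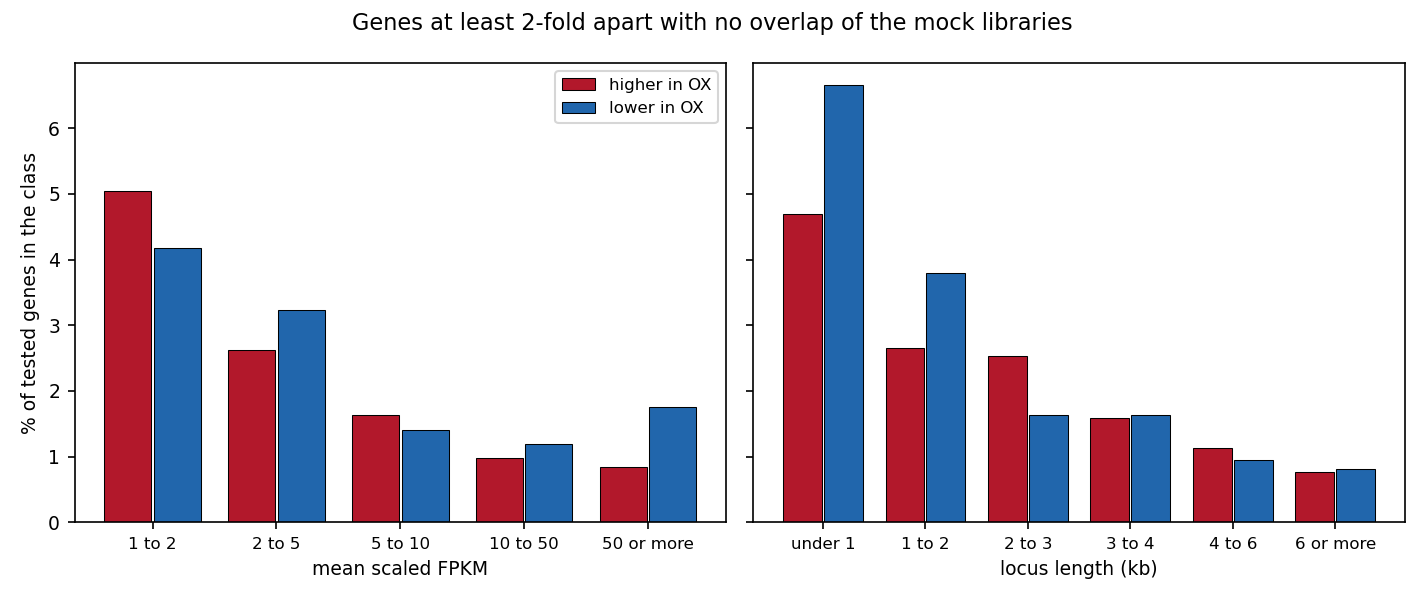
Share of tested genes, in percent, that were at least 2-fold apart with no overlap between the 2 OX and the 2 WT mock libraries, by mean scaled FPKM (left) and by locus length in kb (right), with genes higher in OX in red and lower in OX in blue. The share higher in OX was 5.04% at 1 to 2 scaled FPKM, and the share lower in OX was 6.66% in loci under 1 kb and 0.813% in loci of at least 6 kb.

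Among negative differences, the largest in size were not called. The lowest point of all 14892 genes, a log2 difference of -8.13 (limma adjusted p = 0.438), was 1 fragment in 1 library in a locus of 252 bp. Among genes with at least 20 fragments in both libraries of the higher group, BRADI1G48830 (named after its values were seen) had a larger negative difference than any called gene. It had 0.374 and 0.079 scaled FPKM in the OX mock libraries, against 179 and 114 in the WT mock libraries. It did not pass (log2 difference -6.88, limma adjusted p = 0.187). Its MeJA replicates lay apart in both genotypes, with 0 and 3.42 scaled FPKM in OX and 18.8 and 0.152 in WT. Why it did not pass was not tested.

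**Figure D5:**
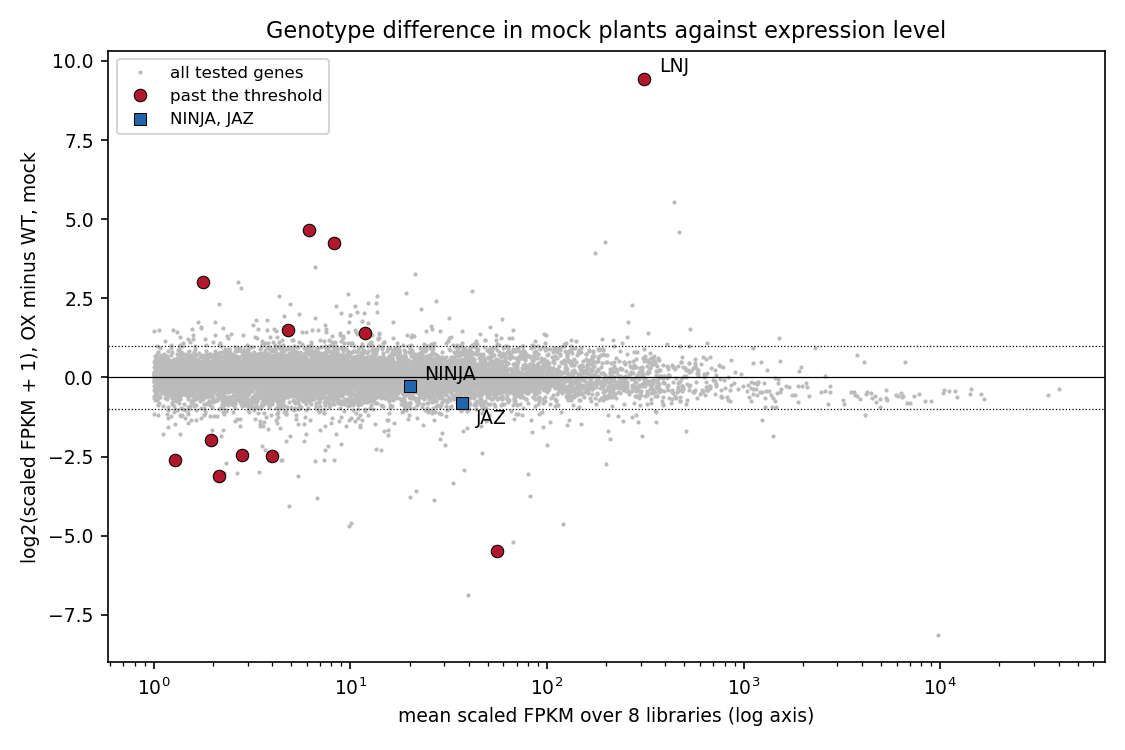
Difference in log2(scaled FPKM + 1), OX minus WT in mock plants, against the mean scaled FPKM over the 8 libraries (log axis) for 14892 tested genes in grey, the 12 called genes in red and *NINJA* and *JAZ* in blue. Dotted lines mark differences of -1 and 1. *LNJ* lies at 9.44, while *NINJA* (-0.27) and *JAZ* (-0.81) lie within the dotted lines.

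A last group was counted by fragments alone, as genes with at least 20 fragments in both mock libraries of 1 genotype and at most 2.5 in each of the other. There were 7 such genes in OX and 5 in WT, 0.0470% and 0.0336% of the 14880 genes with enough fragments. Of the 7 seen in OX, *LNJ* among them, 4 overlapped another gene and 3 kept the pattern under MeJA (at least 10 fragments in both libraries of the genotype). Of the 5 seen in WT, 1 overlapped another gene and 2 kept the pattern under MeJA. By this count 5 genes were seen in 1 genotype under both treatments, of which 4 overlapped no other gene. The overexpressed *LNJ* is included in both of these numbers.

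The calls depended on single libraries and on the MeJA libraries that share the spread. With only the 4 mock libraries fitted, 3 of the 12 genes were called (*LNJ*, BRADI4G01960 and BRADI2G03650, the last 2 on 1 or 2 fragments per library) along with 3 other genes. The 6 genes lower in OX all lost their call there, with limma adjusted p of 0.0794 to 0.237, as did BRADI1G63460 (0.227), BRADI2G31107 (0.321) and BRADI4G03220 (0.0966). Without WT mock library 2, 40 genes were called higher and 31 lower in OX, 0.477% of those tested, among them 10 of the 12 genes. Without OX mock library 2, 3 were called higher and 0 lower, among them 2 of the 12 genes (436 higher and 677 lower at an unadjusted p under 0.05). The 2 genes were *LNJ* and BRADI4G01960. In that fit BRADI2G27140, BRADI2G23797 and BRADI5G09920 kept log2 differences of -5.85, -2.40 and -2.51, each with a limma adjusted p of 0.0518. BRADI2G31107 and BRADI1G18370 passed in 1 of the 8 fits that left out a library, the one without WT mock library 2, with log2 differences of 1.30 to 1.49 and of -2.16 to -1.82 over the 8 fits. When 1 library of a genotype is left out, the lone library is assumed to vary as the other groups do. *LNJ* passed in all 8 fits that left out 1 library and in all 9 other settings.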

How the data were processed

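The authors sequenced TruSeq libraries on a HiSeq2000, aligned read pairs with TopHat2 in Galaxy and estimated expression with Cufflinks. The deposited unit is FPKM with confidence bounds, 1 table per sample (27833 rows, 27830 identifiers, duplicates summed), with no pooling. The genome assembly is not named in the tables. Fragments were derived from the upper bound U as (2 FPKM / (U - FPKM)) squared, and 79.9% to 81.1% of values from under 20 fragments came out within 0.02 of a whole number.

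limma 3.58.1 in R 4.3.3 (lmFit, eBayes with a trend) was fitted to log2(scaled FPKM + 1) of all 8 libraries, with 1 mean for each of 4 groups and 4 residual degrees of freedom. No count test was used, since the tables hold no counts. The procedure was tested on simulated data. The members, lists and tests were chosen with earlier results of these data known. Genes were named when they passed the threshold or when the study gives their identifier. The 22 lists that were to be filled from RefSeq gene descriptions, the naming by description and the promoter motifs could not be used, because 0 of 26552 BRADI identifiers matched the RefSeq gene table (assembly Brachypodium_distachyon_v3.0). No sequence is shown for the same reason. The alternatives were no scaling, upper-quartile scaling, another pseudocount, other filters, a stricter threshold, only the mock libraries, voom on derived fragments, and each library left out.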

Additional observations from a re-analysis of the deposited data

Results flagged for a closer look

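The genotype difference differed between MeJA and mock plants for 2 genes by the interaction test. For BRADI4G01960 the difference under MeJA minus that under mock was -4.66 ± 0.29 on the log2(scaled FPKM + 1) scale (SE, limma adjusted p = 0.0221), with 20.1 and 29.1 scaled FPKM in the OX mock libraries from 1 fragment each and 0 in the other 6 libraries. For ENSRNA049453872, which the tables name as a U2 small nuclear RNA gene, it was -3.51 ± 0.25 (SE, limma adjusted p = 0.0251), with 0 in both OX MeJA libraries, 11.3 and 9.54 scaled FPKM in the WT MeJA libraries and 0 in the mock libraries. The WT MeJA values of the U2 gene were fractions of a fragment, 0.2 and 0.3, as derived from the confidence bounds. Neither gene was called with voom on the derived fragments. A requirement of at least 10 fragments in 2 libraries took both out before the fit, so they could not be called there.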

How the results depend on the processing

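The 6 genes higher and 6 lower in OX mock plants became 2 and 1 with a mean scaled FPKM of at least 5, and 1 and 0 with an adjusted p of at most 0.001 (1132 lower at an unadjusted p under 0.05 in limma). Of the genes lower in OX, a mean of at least 5 left only BRADI2G27140 to be tested, and it passed (limma adjusted p = 0.0251). Filters on level or fragments take genes out before the fit, so a smaller count there is not in itself a failed test. voom on derived fragments called 3 higher, and a fit of only the 4 mock libraries called 2 lower, both of them other genes than the 6. Leaving out 1 library gave 3 to 40 higher and 0 to 31 lower, with both upper ends without WT mock library 2 and both lower ends without OX mock library 2. The log2 difference of *LNJ* was 9.36 to 9.52 over these fits and it passed in each. *LNJ* also passed in the 9 other settings. Under MeJA, 4 higher and 7 lower became 2 and 2 with a mean of at least 5, 1 and 0 with an adjusted p of at most 0.001, and 3 lower with voom, with 1 to 10 higher and 1 to 14 lower when 1 library was left out. The 2 negative and 0 positive interactions (354 and 289 genes at an unadjusted p under 0.05) became 4 and 2 with no filter. The negative ones became 0 with a pseudocount of 0.1, a mean of at least 5, an adjusted p of at most 0.001, voom, or at least 10 fragments in 2 libraries, and leaving out 1 library gave 0 to 7 in each direction. The genes 2-fold apart with no overlap numbered 636 higher and 186 lower without scaling, and 53 and 56 at 4-fold. Without scaling the median log2 difference of all genes was 0.193 instead of 0.004, and 86.3% instead of 46.3% of the genes at an unadjusted p under 0.05 were higher in OX, while all 12 called genes were still called. Upper-quartile scaling kept 11 of the 12 and voom 7. With a pseudocount of 0.1, 6 of the 12 were called along with 3 other genes. With no filter, 9 were called along with 4 others. Similar counts thus did not always hold the same genes. No direction of a named gene was reversed. BRADI1G63460 passed in 0 of the 8 fits without 1 library, BRADI2G31107 and BRADI1G18370 in 1, BRADI2G03650 in 2, and the other 8 in 6 or more. The causes were not tested. No paired analysis was possible because the sample numbers run from 1 to 8 without a repeat.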

Other observations

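The tables do name rRNA genes and copies of plastid genes, which were grouped after the values had been seen. Of 32 tested genes named as small subunit rRNA, 31 had a lower mean in OX than in WT mock plants, with a median log2 difference of -0.29, and 0 passed the test. Of 13 tested genes named as large subunit rRNA, 13 were lower, with a median of -0.64, and 0 passed. In the small and the large subunit class, the 2 OX mock libraries differed from each other by medians of 0.01 and -0.05, and the 2 WT mock libraries by 0.32 and 0.67 (library 1 minus library 2). Both OX mock libraries were below both WT mock libraries in 29 of the 32 and 8 of the 13 genes, and in 22.1% of all tested genes. The fragments in the 32 small subunit genes numbered 245797 and 233703 in the OX mock libraries and 249745 and 206775 in the WT mock libraries. Those in the 13 large subunit genes numbered 94361 and 89300 in the OX mock libraries and 90921 and 73381 in the WT mock libraries. These fragment numbers, which are not scaled to the library, overlapped between the genotypes in both classes and were not lower in OX throughout. Why they and the scaled FPKM differ was not tested. Under MeJA the median differences between OX and WT were -0.29 and -0.31. The copies are near-identical, and fragments cannot be assigned to single copies with certainty. Of 28 tested genes on the chromosomes with names of plastid genes, 23 were lower in OX, with a median of -0.31. The median difference between the 2 OX mock libraries was 0.36 in this class. Both OX mock libraries were below both WT mock libraries in 10 of these genes and above them in 1. Under MeJA the median difference between OX and WT in this class was -0.05. The fragments in these 28 genes numbered 2820 and 1935 in the OX mock libraries and 2657 and 2172 in the WT mock libraries.

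BRADI1G48830, the uncalled gene with the large negative difference, had a profile over the libraries that separated replicates. It had 0 and 3.42 scaled FPKM in the OX MeJA libraries, against 18.8 and 0.152 in the WT MeJA libraries. WT MeJA library 1 therefore lay toward the WT mock libraries, while WT MeJA library 2 lay with the OX mock libraries. Over the 8 libraries, which share the scaling, 5 of 14892 genes, itself included, had an r of at least 0.95 with it and a range of at least 2 on the log2 scale. One of them, BRADI1G08340, had 0.356 and 0.134 scaled FPKM in the OX mock libraries, against 40.4 and 23.8 in the WT mock libraries, 0.0951 and 3.93 in the OX MeJA libraries and 9.9 and 0.171 in the WT MeJA libraries. All 5 were below 0.6 scaled FPKM in both OX mock libraries and in WT MeJA library 2. Both identifiers were chosen after their values were seen.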
